A study of Mus musculus with 15 samples.

Results

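The comparison set the lung-derived line L1P against the tumour-derived line M1P, 3 arrays each, 6 of the 15 arrays of the series, over all 18193 mouse genes measured with 1 probe set per gene. The arrays were chosen by the line named in their titles and no measured value entered the choice. Both lines descend from E1KD, a line of NMuMG mouse mammary gland epithelial cells in which hnRNP E1 (gene Pcbp1) was silenced, so both carry that silencing. M1P was recovered from a primary tumour that E1KD cells formed in the mammary fat pad, and L1P from lung metastases after 1 passage through NOD/SCID mice, which lack functional B and T cells. M1P also had 1 passage in mice. The series also holds the parental NMuMG line, E1KD and L2P, a second lung passage, with 3 arrays each. L1P and M1P are each a single derived line, grown in the same serum-containing medium before RNA extraction, and the labels give neither the animals nor the number of clones behind them. The comparison asks how a line taken from the lung differed from one taken from the primary site when both came from the same silenced cells.

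hnRNP E1 is an RNA-binding protein that holds certain messages in a translationally silent state, and its loss in NMuMG cells is known to release messages tied to epithelial-mesenchymal transition. Recovery of cells from a distant organ selects for cells that could leave the first tumour, survive in circulation and grow at the new site, and cells taken from a primary tumour are selected for growth there. Expression measured afterwards in culture shows what the surviving cells keep in dishes, since the host tissue is no longer around them.

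The 3 L1P arrays were alike, and the 3 M1P arrays were not. Over all genes the L1P arrays correlated with each other at 0.994 to 0.995, whereas M1P array 1 correlated with M1P array 3 at 0.920 and M1P array 2 with M1P array 3 at 0.976. M1P array 3 correlated with the L1P arrays at 0.979 to 0.984, which is above its correlation with M1P array 1 and with M1P array 2. The mean L1P level was at least 2-fold above M1P array 1 for 3027 genes and at least 2-fold below it for 2581, against 653 and 306 genes for M1P array 3. The upper quartile of log2 signal was 6.33, 6.64 and 6.67 on M1P arrays 1 to 3 and between 6.78 and 6.86 on the L1P arrays. The control probe set dap, which reads a bacterial spike-in RNA, gave 10.548, 10.005 and 11.18 on the M1P arrays and between 9.21 and 9.25 on the L1P arrays. The control probe set for the 3' end of Tfrc read 4.97 and 5.07 on M1P arrays 1 and 2 and 6.59 on M1P array 3, within the L1P range of 6.41 to 6.94. The 3' minus 5' difference of the Gapdh and actin controls was 0.444, 0.475 and 0.609 on the M1P arrays and 0.547 to 0.681 on the L1P arrays. The part of these array differences in the results was not tested.

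Across all genes, 2466 were higher in L1P (13.6% of those tested) and 4720 were lower (25.9%) at a Benjamini-Hochberg adjusted p under 0.05 by limma, a linear model that shares the spread across genes. The median L1P minus M1P difference over all genes was -0.25 on the log2 scale. The E1KD mean lay nearer to the L1P mean than to the M1P mean for 77% of all genes (14013 of 18193). An E1KD level near L1P was thus usual and not particular to the genes named below. A stricter set was formed by also testing the L1P arrays against each M1P array taken alone, where the lone array is assumed to vary like the arrays of the other lines. By that rule, 279 genes were higher (1.53%) and 503 were lower (2.76%) against every M1P array. Against M1P array 1 alone 3651 genes (20.1%) were higher and 8182 (45%) lower, against array 2 alone 1808 (9.94%) and 2372 (13%), and against array 3 alone 577 (3.17%) and 750 (4.12%). All L1P arrays lay above all M1P arrays for 2589 genes (14.2%) and below them for 6434 (35.4%). The 279 and 503 genes are called below the genes that passed against each M1P array. Single arrays moved the counts: without M1P array 1 they were 1205 higher and 2058 lower, without L1P array 3 they were 802 and 1687, and with the spread taken from the 6 arrays alone they were 88 and 200. All values that follow are log2 signals in the order of arrays 1, 2 and 3, differences are L1P minus M1P with their standard error, and all p-values are limma's adjusted p over the 18193 genes. Genes said to rise or fall were higher or lower in L1P than in M1P, which is not a change from E1KD. Counts of members of a gene list are to be read against the shares of 13.6% and 25.9% over all genes. Among the 8961 genes left by a filter on low signal these shares were 26.7% and 27.4%, which is the nearer background for lists of abundant genes. Median signals of the 6 arrays were 4.17 to 4.26, and where a gene lies below them in a line its signal may be background, so that its fold is then at best a lower bound. No label tells if replicate arrays were independent cultures, so these p-values measure the spread between arrays, which may be technical.

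**Figure D1:**
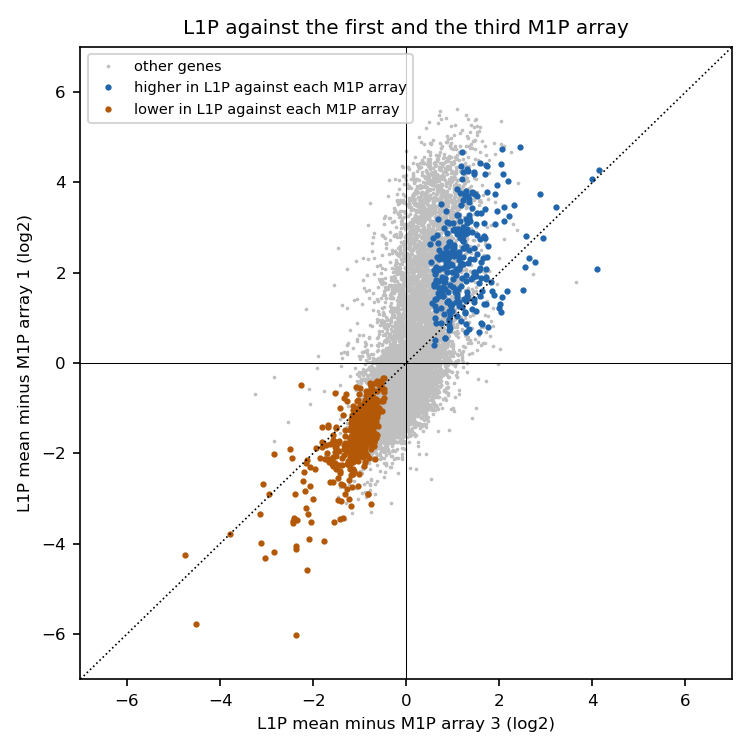
Each point is 1 of the 18193 genes, with the L1P mean minus M1P array 3 on the horizontal axis and minus M1P array 1 on the vertical axis, both in log2 units; the dotted line marks equal differences. The coloured points are the higher and lower genes that passed against each M1P array. The tall grey column near 0 on the horizontal axis holds genes for which M1P array 3 lay near L1P. Those in its upper part were low on M1P array 1 and those in its lower part were high on it.

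Pcbp1, the silenced gene, was below the NMuMG mean of 12.68 in both lines. Its signals were 8.78, 8.01 and 8.69 in L1P and 9.98, 10.09 and 9.41 in M1P, against an E1KD mean of 9.25. All 3 L1P arrays lay below all 3 M1P arrays, and the lines differed by -1.33 ± 0.22 (adjusted p = 0.00177). Against M1P array 3 alone the difference was -0.92 and did not pass. Xist, the RNA that coats the inactive X chromosome, read 3.98, 3.83 and 3.98 in L1P and 4.47, 4.40 and 4.51 in M1P, while its E1KD mean was 9.997. Both passaged lines were thus far below their parent, and the difference between them did not pass (-0.53 ± 0.35, adjusted p = 0.217).

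The genes most cleanly separated upward in L1P were led by Nxf3, a germline-enriched member of the nuclear RNA export factor family, and Abcb1b, the rodent P-glycoprotein pump that expels drugs from cells. Nxf3 read 6.72, 6.94 and 7.31 in L1P and 2.71, 2.52 and 2.85 in M1P. Every L1P array was above every M1P array by several log2 units, and the difference was 4.30 ± 0.49 (adjusted p = 0.00019). Abcb1b read 7.96, 7.49 and 7.81 in L1P and 3.68, 3.59 and 3.76 in M1P, a 16.9-fold difference (4.08 ± 0.15, adjusted p = 5.74e-09). The M1P arrays lay as close together as the L1P arrays for this gene. AI662270, a transcript with no assigned role here, read 7.11, 7.21 and 7.25 in L1P and 3.74, 3.73 and 3.97 in M1P (3.38 ± 0.11, adjusted p = 4.34e-09). In L2P it read 4.22, 4.36 and 4.49, so the later lung passage lay near M1P rather than near L1P.

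The same upward set held Dppa2, a pluripotency-associated gene of the early embryo, and Lncenc1, a long noncoding RNA of embryonic stem cells. Dppa2 read 6.01, 6.57 and 6.0 in L1P and 2.46, 3.45 and 3.33 in M1P (3.12 ± 0.32, adjusted p = 0.000106). Lncenc1 read 7.38, 7.22 and 7.22 in L1P and 4.46, 4.59 and 4.71 in M1P (2.69 ± 0.15, adjusted p = 5.1e-07), with E1KD between them at a mean of 6.05. Dse, which epimerises chondroitin to dermatan sulfate, read 4.79, 4.98 and 5.12 in L1P and 2.64, 2.37 and 2.33 in M1P. For these 3 genes the lines did not overlap, and each passed against each M1P array.

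For other genes with a wide gap M1P array 3 lay nearest to L1P, some with a wide spread in M1P and some without. Mycbp2, an E3 ubiquitin ligase, read 8.33, 8.31 and 8.73 in L1P and 3.66, 5.12 and 6.01 in M1P, so the distance ranged from 2.45 against M1P array 3 to 4.79 against M1P array 1. It passed against each M1P array. Dmxl2, a regulator of the vacuolar proton pump, read 6.08, 6.05 and 6.85 in L1P and 2.33, 2.14 and 3.92 in M1P. Kcnq1ot1, an imprinted noncoding RNA antisense to Kcnq1, read 6.84, 6.94 and 7.54 against 4.03, 4.31 and 4.80. The M1P arrays were close together for Kcnq1ot1 and Golm2, with standard deviations of 0.39 and 0.30, beside 0.38 and 0.53 in L1P. Dmxl2, Kcnq1ot1 and Golm2 passed with all M1P arrays (adjusted p = 0.00176, 0.00685 and 0.00399) and did not pass against M1P array 3 alone. The same held for Taok1, a stress-activated kinase, at 7.96, 8.14 and 8.80 in L1P and 3.43, 3.65 and 6.42 in M1P, for Ktn1, a kinesin-binding protein (3.58 ± 0.75), and for Med13, a Mediator subunit (3.76 ± 0.63).

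The genes most cleanly separated downward were led by Ly6e, a lipid-anchored surface protein of the Ly6 family, and Defb41, a beta-defensin. Ly6e read 5.45, 5.51 and 4.67 in L1P and 10.99, 10.66 and 9.73 in M1P, a 38.0-fold difference (-5.25 ± 0.37, adjusted p = 5.42e-06). The E1KD mean of 6.79 lay between the lines, nearer to L1P. Ly6e was the 1 of 6 measured Ly6 family members that passed (16.7%). Defb41 read 3.97, 3.56 and 3.91 in L1P and 8.07, 8.15 and 8.58 in M1P (-4.45 ± 0.29, adjusted p = 2.77e-06), with an E1KD mean of 5.78. The L1P arrays were below E1KD and the M1P arrays above it.

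Signal transducers and surface receptors followed. Gnb4, a G protein beta subunit, read 3.99, 3.37 and 4.05 in L1P and 7.60, 7.23 and 7.60 in M1P (-3.67 ± 0.26, adjusted p = 5.42e-06). Pilra and Pilrb1, the inhibitory and activating members of a pair of neighbouring immunoglobulin-like receptor genes, were both lower in L1P. Pilra read 4.27, 4.36 and 3.67 in L1P and 7.44, 7.63 and 7.25 in M1P, and Pilrb1 read 7.01, 6.39 and 6.22 against 9.21, 9.25 and 9.62. Their probe sets may share signal, because the genes are close in sequence. Khdrbs3, an RNA-binding splicing regulator, read 2.65, 2.94 and 2.85 in L1P, 5.71, 6.16 and 5.77 in M1P and 7.57 on average in E1KD. Both passaged lines were below E1KD for Khdrbs3, and L1P was below M1P by 3.06 ± 0.16 on the log2 scale (adjusted p = 3.94e-07).

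Further genes separated downward were of several kinds. Ctsh, the lysosomal protease cathepsin H, read 5.30, 5.85 and 4.78 in L1P and 9.62, 9.15 and 8.34 in M1P (-3.73 ± 0.36, adjusted p = 7.38e-05). Sprr1b, a cornified envelope precursor, read 3.21, 2.57 and 3.09 in L1P and 7.13, 6.05 and 5.80 in M1P. Hspa1b, an inducible HSP70 whose probe set may also read its near-identical neighbour Hspa1a, read 3.89, 4.03 and 3.56 against 7.33, 7.17 and 6.26. All 3 passed against each M1P array. Stra6, the cell surface receptor for retinol-binding protein, read 4.55, 4.55 and 4.26 in L1P and 8.57, 8.40 and 6.83 in M1P, so M1P array 3 lay nearer to L1P without meeting it. Scara3, a scavenger receptor family member, read 2.40, 1.92 and 2.38 in L1P and 6.81, 6.52 and 4.38 in M1P (-3.67 ± 0.46, adjusted p = 0.000362).

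**Figure D2:**
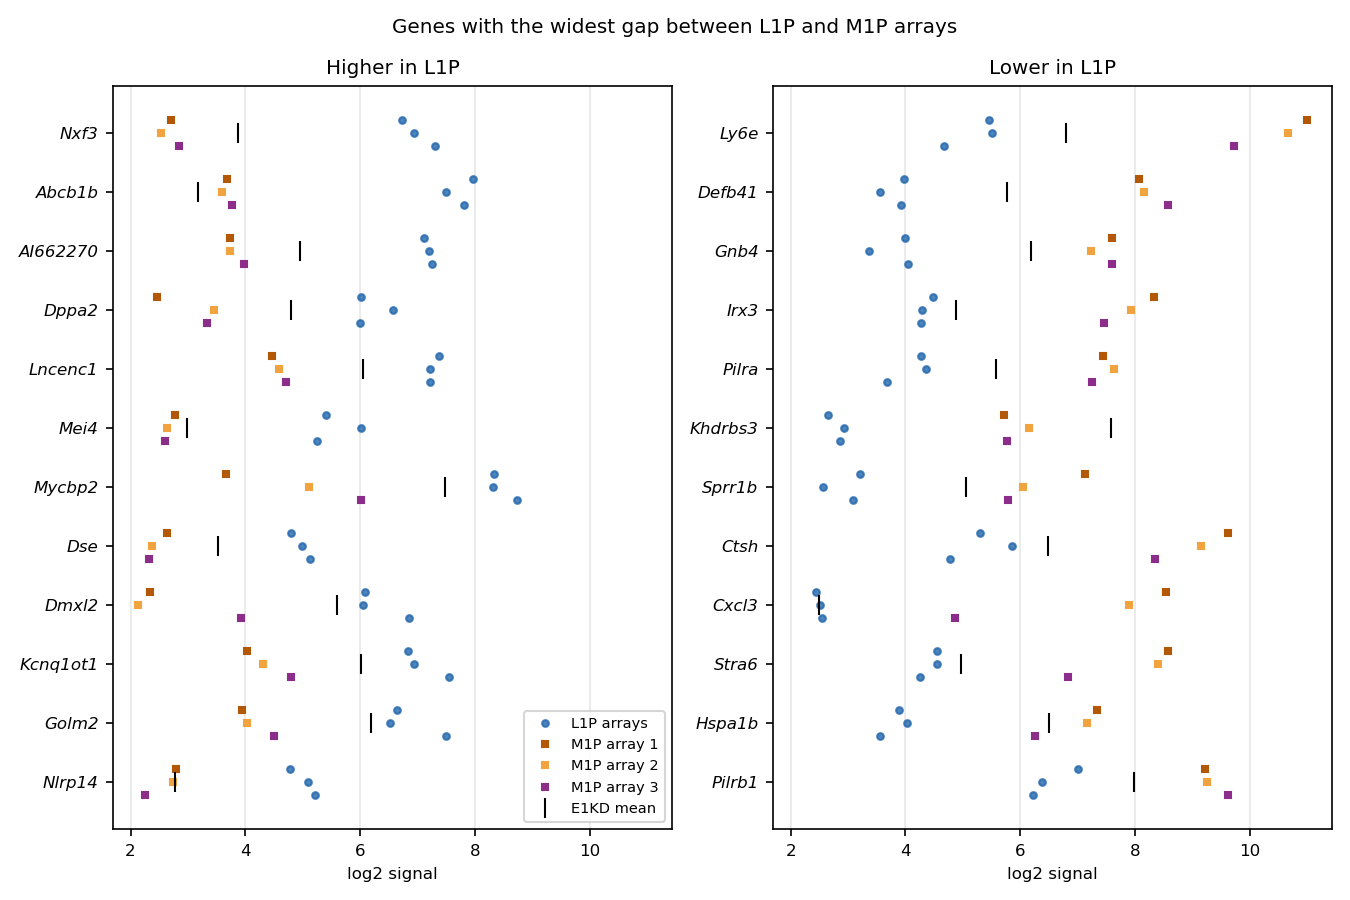
Log2 signal of the 12 genes higher and the 12 genes lower in L1P with the widest gap between the lines, with 1 point per array (L1P circles, M1P squares coloured by array, offset vertically) and the E1KD mean as a bar. M1P arrays 1 to 3 lie close together for Abcb1b and Defb41 and spread for Mycbp2, Dmxl2 and Cxcl3, and no L1P array overlaps an M1P array for the genes drawn.

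Upstream sequences are shown for 4 separated genes, a pump and a meiotic gene that were higher in L1P and a calcium-binding protein and a homeobox gene that were lower, chosen among clearly separated genes with a promoter entry in the table. Each line gives the 250 bases upstream of the annotated RefSeq start on GRCm38.p6, 5' to 3' on the gene's strand, with each CG dinucleotide in capitals. Abcb1b is at chr5:8797897-8798146 on the plus strand, Mei4 at chr9:81863420-81863669 on the plus strand, S100a4 at chr3:90603520-90603769 on the plus strand and Irx3 at chr8:91801655-91801904 on the minus strand.
Abcb1b: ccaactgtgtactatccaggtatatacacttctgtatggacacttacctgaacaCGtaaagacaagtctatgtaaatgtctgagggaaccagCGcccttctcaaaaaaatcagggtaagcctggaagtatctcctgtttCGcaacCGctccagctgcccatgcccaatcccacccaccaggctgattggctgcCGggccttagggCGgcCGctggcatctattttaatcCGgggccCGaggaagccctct
Mei4: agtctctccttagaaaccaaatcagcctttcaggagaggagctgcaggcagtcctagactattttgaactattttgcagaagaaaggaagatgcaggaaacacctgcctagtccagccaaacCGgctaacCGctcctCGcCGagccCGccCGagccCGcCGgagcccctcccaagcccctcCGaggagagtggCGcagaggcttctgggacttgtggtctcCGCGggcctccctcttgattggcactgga
S100a4: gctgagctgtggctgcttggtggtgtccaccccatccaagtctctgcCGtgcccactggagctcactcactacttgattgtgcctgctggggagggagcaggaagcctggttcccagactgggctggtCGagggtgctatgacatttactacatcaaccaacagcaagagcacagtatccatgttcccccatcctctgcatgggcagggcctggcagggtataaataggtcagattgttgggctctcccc
Irx3: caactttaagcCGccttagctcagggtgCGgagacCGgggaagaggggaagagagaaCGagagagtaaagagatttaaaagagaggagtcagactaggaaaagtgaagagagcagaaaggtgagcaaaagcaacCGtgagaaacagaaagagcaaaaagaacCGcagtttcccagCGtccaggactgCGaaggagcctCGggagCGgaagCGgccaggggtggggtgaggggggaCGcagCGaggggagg
CG reads the same on both strands. It occurred 9 times upstream of Abcb1b, 12 times upstream of Mei4, 2 times upstream of S100a4 and 13 times upstream of Irx3. Over the 32851 RefSeq promoter windows of this length the median was 6 and the quartiles were 2 and 16, and 92.1% of windows held at least 1 CG. Both the genes that were higher and Irx3, which was lower, lay between the median and the upper quartile, and S100a4 lay at the lower quartile. A promoter entry was matched by symbol for 14452 of the 18193 genes. The counts describe the sequence and no methylation was measured.

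ErbB signalling runs from EGF-like and neuregulin ligands through paired receptor tyrosine kinases to feedback inhibitors. Of 24 measured genes of this pathway, 5 rose (20.8%), 3 fell (12.5%) and 16 did not pass. Its median difference was -0.12 beside -0.25 over all genes. Erbb3, the kinase-impaired neuregulin receptor, read 10.57, 10.33 and 10.40 in L1P and 8.36, 7.58 and 6.33 in M1P. All L1P arrays were above all M1P arrays, and the M1P arrays spread over about 2 log2 units, with array 3 lowest. The difference was 3.01 ± 0.39 (8.07-fold, adjusted p = 0.000481), and against M1P array 3 alone it was 4.10, 17.2-fold. M1P array 3, the M1P array nearest to L1P over all genes, was here the farthest from it. The E1KD mean of Erbb3 was 4.70 and the L2P arrays read 10.89, 10.54 and 10.53, so both lung lines stood well above the parent. All M1P arrays were above the parent too, with a mean of 7.42, so the rise over E1KD was shared by the tumour line.

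Its ligand and partner were also higher in L1P. Nrg1, which encodes neuregulin ligands of ErbB3 and ErbB4, read 7.20, 7.24 and 7.44 in L1P and 4.69, 5.92 and 5.53 in M1P (1.91 ± 0.30, adjusted p = 0.00129). Egfr read 8.12, 7.25 and 7.91 in L1P and 5.67, 6.82 and 6.66 in M1P (1.38 ± 0.27, adjusted p = 0.00448). The lines did not overlap for either gene, and Erbb3, Nrg1 and Egfr each passed against each M1P array. For Egfr the E1KD mean of 7.71 was within the L1P range, whereas Nrg1 in E1KD (6.76) was below all L1P arrays. Ereg, the ligand epiregulin, differed by 1.94 with all M1P arrays and by -0.06 against M1P array 3, so its call rested on M1P arrays 1 and 2. Erbb2, the preferred partner of ErbB3, differed by -0.64 with all arrays and by -0.01 against M1P array 3, and Dusp6, a feedback phosphatase of ERK, fell by 0.67 ± 0.16 on the log2 scale with all arrays and did not pass against M1P array 3 alone.

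ABC efflux transporters pump drugs and metabolites out of cells, and 12 were listed after Abcb1b had been seen, so their counts are a description. In L1P 2 were higher (16.7%), 4 were lower (33.3%) and 6 did not pass. Beside Abcb1b, Abcc4, an exporter of cyclic nucleotides and drugs, read 11.17, 10.85 and 10.82 in L1P and 9.08, 10.19 and 9.24 in M1P (1.44 ± 0.24, adjusted p = 0.00194). Abcg2, the breast cancer resistance protein, went the other way at 6.31, 6.26 and 6.04 in L1P and 6.69, 7.47 and 8.46 in M1P (-1.34 ± 0.31, adjusted p = 0.00893). Here M1P array 1 lay closest to L1P and M1P array 3 farthest, at -2.26. Abcb1a, the close paralog of Abcb1b, read 5.99, 6.17 and 6.80 in L1P and 4.96, 5.89 and 5.81 in M1P and did not pass (0.77, adjusted p = 0.12). Abcb1b read 3.18 on average in E1KD and 7.30, 7.51 and 7.40 in L2P, and Abcg2 8.72 in E1KD and 5.95, 6.12 and 5.81 in L2P. Both lung lines thus lay together for these pumps.

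Several of the widest gaps were in genes usually restricted to germ cells or early embryos, and 63 such genes were listed after that had been seen. In L1P 5 were higher (7.94%), 8 were lower (12.7%) and 50 did not pass. Both shares lay below the 13.6% and 25.9% over all genes, and the counts are a description. Mei4, needed for meiotic double-strand breaks, read 5.40, 6.01 and 5.25 in L1P and 2.77, 2.63 and 2.61 in M1P (2.88 ± 0.29, adjusted p = 0.000102). Nlrp14, a germline member of the NLR family, read 4.79, 5.10 and 5.22 in L1P and 2.79, 2.74 and 2.26 in M1P (2.44 ± 0.23, adjusted p = 6.34e-05). Their E1KD means were 2.98 and 2.77, so the L1P level was above parent and tumour line alike. Rhox5, an X-linked homeobox gene, was higher in L1P by 1.01 ± 0.14, and its E1KD mean of 11.67 was above both lines.

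The meiotic recombination genes Hsf2bp and Mnd1 were lower in L1P. Hsf2bp, a partner of BRCA2 in meiosis, read 4.79, 5.05 and 4.62 in L1P and 8.34, 7.79 and 6.86 in M1P (-2.84 ± 0.29, adjusted p = 0.000106). Its E1KD mean was 5.19, so M1P was the line that stood apart. Mnd1, a cofactor of strand exchange, read 3.63, 3.43 and 3.10 in L1P and 5.40, 5.81 and 6.24 in M1P (-2.43 ± 0.20, adjusted p = 2.44e-05), against 5.86 in E1KD. For Mnd1 it was L1P that stood apart from parent and tumour line. Nxf3, Dppa2, Mei4, Nlrp14, Rhox5, Hsf2bp and Mnd1 each passed against each M1P array.

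**Figure D3:**
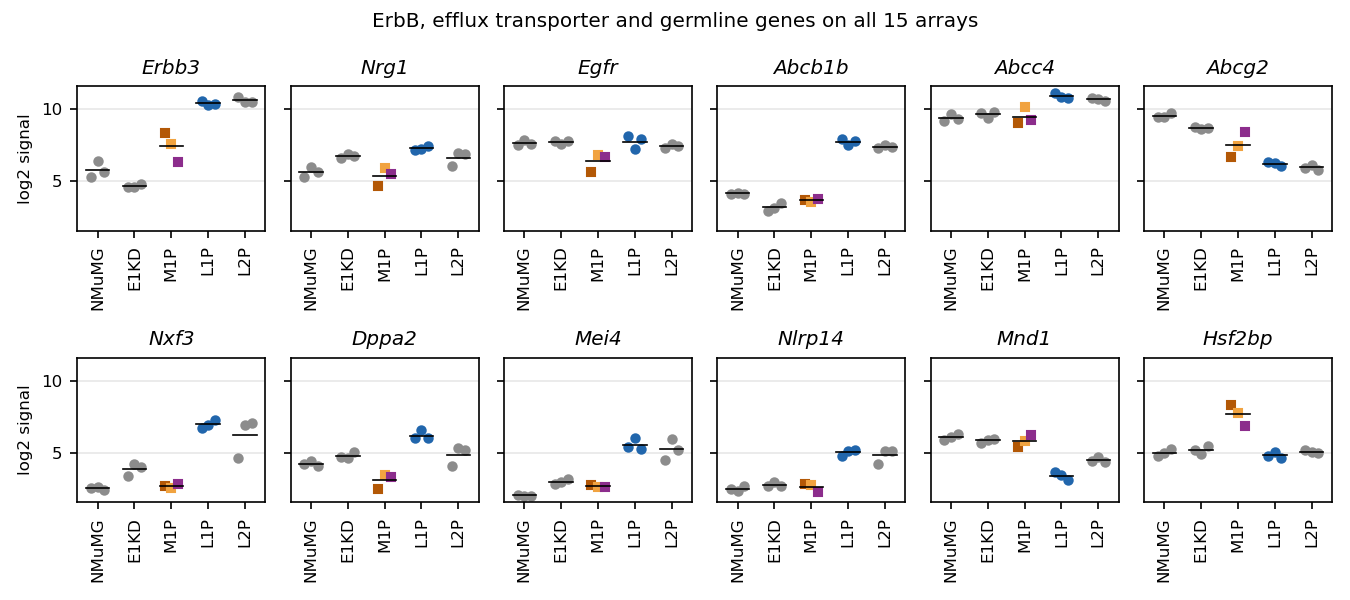
Log2 signal of 12 genes of the ErbB, efflux transporter and germline groups on all 15 arrays (x axis: line), with 1 point per array and a black bar at the mean of each line; M1P arrays are squares. L1P and L2P lie together for Erbb3, Abcb1b and Abcg2, Hsf2bp is high in M1P and low elsewhere, and Mnd1 is lowest in L1P.

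The simple keratins Krt8 and Krt18, E-cadherin and vimentin did not pass, other keratins were lower, and some apical and junction genes differed in either direction. Of 12 keratins 5 fell (41.7%) and 7 did not pass, with a median of -0.40 that was -0.20 against M1P array 3. Krt80, a keratin of cell borders, read 7.97, 6.66 and 7.57 in L1P and 8.90, 8.49 and 8.33 in M1P (-1.17 ± 0.33, adjusted p = 0.0187), and no keratin that fell passed against M1P array 3 alone. Krt8 and Krt18, the simple epithelial keratins, read between 13.57 and 14.13 on all 6 arrays and did not pass. Cdh1, which encodes E-cadherin, read 10.60, 11.06 and 10.46 in L1P and 10.64, 11.24 and 10.15 in M1P (0.03 ± 0.26, adjusted p = 0.926). Vim, the mesenchymal filament protein, also did not pass (0.22 ± 0.11, adjusted p = 0.12). Cdh2, N-cadherin, read 10.35, 9.42 and 10.49 in L1P and 8.16, 9.56 and 9.29 in M1P, and the lines overlapped although the test passed (1.08 ± 0.33, adjusted p = 0.025). Fn1, fibronectin, read 8.14, 7.21 and 7.43 in L1P and 8.79, 9.06 and 8.01 in M1P, again with overlap (-1.03 ± 0.34, adjusted p = 0.0337). Neither Cdh2 nor Fn1 passed against M1P array 3 alone, and Cdh2 did not pass against M1P array 2 alone.

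Of 27 junction genes 3 rose (11.1%) and 7 fell (25.9%), near the shares over all genes. Tjp1, the tight junction scaffold ZO-1, read 10.63, 10.43 and 10.97 in L1P and 6.98, 9.16 and 9.35 in M1P (2.18 ± 0.49, adjusted p = 0.0078) and passed against each M1P array. Gjb5, a connexin, read 6.69, 6.48 and 6.47 in L1P and 8.63, 8.23 and 8.12 in M1P (-1.78 ± 0.31, adjusted p = 0.00235). Muc1, an apical mucin, read 6.67, 6.46 and 6.51 in L1P and 9.89, 9.16 and 8.65 in M1P (-2.69 ± 0.29, adjusted p = 0.000143). Its means were 11.12 in NMuMG and 9.09 in E1KD, so L1P lay below the parent while M1P lay near it. Csn3, kappa-casein, read 5.48, 5.66 and 5.18 in L1P and 8.06, 7.57 and 7.67 in M1P (-2.32 ± 0.31, adjusted p = 0.000514), and here both lines were above the E1KD mean of 3.78, M1P the more so.

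Among 15 transcription factors of epithelial-mesenchymal transition and their epithelial opponents, 5 rose (33.3%), 3 fell (20%) and 7 did not pass. Zeb2, an E-cadherin repressor, read 6.18, 6.22 and 6.83 in L1P and 2.81, 3.24 and 5.71 in M1P (2.49 ± 0.67, adjusted p = 0.0155). Zeb1 read 8.11, 8.11 and 8.38 in L1P and 5.29, 6.13 and 7.71 in M1P (1.83 ± 0.49, adjusted p = 0.0154). The E1KD mean was 6.04 for Zeb2 and 8.24 for Zeb1, nearer to the L1P mean than to the M1P mean for both. M1P array 3 lay close below the L1P arrays for both, at 0.70 and 0.49, and Zeb1, Zeb2, Tcf4 and Snai2 did not pass against it alone, nor Snai2 against M1P array 2. Among genes tied to hnRNP E1, Fam3c, the secreted factor ILEI, read 9.69, 9.85 and 9.77 in L1P and 8.20, 8.87 and 8.73 in M1P (1.17 ± 0.16, adjusted p = 0.000735) and passed against each M1P array. The Fam3c means were 10.13 in E1KD and 9.83 in NMuMG, so L1P was not above the parent and M1P lay well below it. Dab2, an endocytic adaptor (-0.81 ± 0.20, adjusted p = 0.0126), and Lifr, the LIF receptor (-0.45 ± 0.16, adjusted p = 0.0424), were lower in L1P with all arrays. The Lifr means of 3.55 in L1P and 3.99 in M1P lay below the array medians, so its signal may be background in both lines. With the Lifr probe set of largest variance the test did not pass (limma adjusted p = 0.715). Dab2 did not pass against M1P array 3 alone, and Lifr did not pass against any M1P array alone. Inhba, an activin subunit, did not pass (-0.08 ± 0.23).

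Adhesion receptors divided. Of 24 integrins and related receptors 7 rose (29.2%), 8 fell (33.3%) and 9 did not pass. Itga6, the laminin-binding integrin alpha 6, read 10.85, 10.52 and 10.93 in L1P and 6.50, 9.02 and 9.44 in M1P, and Itgb6, the beta subunit that activates latent TGF-beta, read 6.80, 6.93 and 7.45 against 4.98, 5.86 and 5.34. Both passed against each M1P array, with differences of 2.45 ± 0.54 and 1.67 ± 0.27. Procr, the protein C receptor and a mammary stem cell marker, read 9.86, 8.85 and 9.48 in L1P and 8.10, 7.36 and 7.39 in M1P (1.78 ± 0.27, adjusted p = 0.0011). The E1KD mean of Procr was 7.38, at the level of M1P.

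Of 23 collagens and fibril components 9 fell (39.1%) and 14 did not pass, with a median of -0.39 beside -0.25 over all genes. Col6a1, a collagen VI chain, read 3.85, 3.47 and 3.40 in L1P and 7.51, 7.24 and 5.34 in M1P (-3.12 ± 0.45, adjusted p = 0.000852), and Col6a2 fell by 1.63 ± 0.25 on the log2 scale. M1P array 3 lay between the other M1P arrays and L1P for Col6a1. The E1KD mean of Col6a1 was 3.91, close to L1P. Mmp13, a collagenase, read 8.93, 7.28 and 8.26 in L1P and 3.36, 4.18 and 6.07 in M1P (3.62 ± 0.67, adjusted p = 0.00339) and did not pass against M1P array 3 alone. Of 17 S100 proteins and galectins 2 rose and 9 fell (52.9%). S100a4, a motility-associated calcium-binding protein, read 10.77, 11.04 and 10.71 in L1P and 13.26, 13.33 and 13.04 in M1P, a 5.17-fold difference with tight arrays in both lines (-2.37 ± 0.14, adjusted p = 1.22e-06). S100a4 was at 12.89 in E1KD, so L1P lay below the parent while M1P lay near it.

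Of 30 Wnt pathway genes 3 rose and 8 fell (26.7%), the latter near the share over all genes. Wnt4, a ligand active in mammary branching, read 5.15, 5.75 and 4.75 in L1P and 8.64, 7.79 and 6.58 in M1P (-2.45 ± 0.41, adjusted p = 0.00194), and the receptor Fzd1 read 3.22, 3.29 and 3.25 against 5.63, 5.67 and 4.41. Both passed against each M1P array. Fgfr3, an FGF receptor, read 5.22, 5.26 and 5.00 in L1P and 8.07, 7.85 and 5.98 in M1P, with M1P array 3 again the nearest to L1P. Of 25 homeobox genes 2 rose and 8 fell (32%). Irx3, an Iroquois factor, read 4.47, 4.29 and 4.28 in L1P and 8.34, 7.93 and 7.47 in M1P (-3.56 ± 0.27, adjusted p = 9.7e-06), and its neighbour Irx5 fell by 1.32 ± 0.18. E1KD and NMuMG had Irx3 means of 4.88 and 4.80, so M1P was the line above the others. Meis1 and Meis2, HOX cofactors, rose by 1.23 ± 0.23 and 1.03 ± 0.14. Lats2, a Hippo pathway kinase, read 6.94, 6.40 and 7.01 in L1P and 4.27, 5.98 and 5.44 in M1P and passed against each M1P array.

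Of 29 cytokines, chemokines and alarmins 4 rose (13.8%) and 11 fell (37.9%). Cxcl3, a neutrophil-attracting chemokine, read 2.44, 2.51 and 2.54 in L1P and 8.53, 7.90 and 4.86 in M1P (-4.60 ± 0.65, adjusted p = 0.000787). The E1KD mean of 2.49 was at the L1P level, and the L2P arrays were at 9.18, 9.42 and 8.52, far above L1P. Ccl20, a chemokine for CCR6-bearing cells, went up at 9.96, 11.06 and 10.03 in L1P against 8.56, 9.34 and 6.71 in M1P (2.15 ± 0.67, adjusted p = 0.0264). Ccl20 passed against M1P array 3 alone and not against array 1 or array 2 alone. Il1rn, the interleukin-1 receptor antagonist, read 5.28, 5.24 and 5.19 in L1P and 6.40, 6.51 and 6.39 in M1P and passed against each M1P array. Of 25 interferon response genes 1 rose and 8 fell (32%). Oasl1, an interferon-induced OAS-like protein, read 5.32, 5.54 and 5.20 in L1P and 8.56, 7.96 and 7.50 in M1P (-2.66 ± 0.27, adjusted p = 0.000106).

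Cholesterol synthesis genes were lower in L1P. Of 19 genes 11 fell (57.9%) and 8 did not pass, and the median of -0.72 was below the -0.25 over all genes. Against M1P arrays 1, 2 and 3 the median was -0.997, -0.868 and -0.30. Mvk, mevalonate kinase, read 6.23, 6.23 and 6.22 in L1P and 8.70, 7.69 and 7.42 in M1P (-1.71 ± 0.28, adjusted p = 0.00168), and Mvd, which acts later in the mevalonate pathway, read 5.997, 6.39 and 5.99 against 8.13, 7.48 and 7.10. Mvk, Mvd and Nsdhl passed against each M1P array. Of 27 nuclear genes of oxidative phosphorylation 1 rose and 14 fell (51.9%). Ndufb8, a complex I subunit, read 10.97, 11.14 and 10.84 in L1P and 12.33, 11.80 and 11.77 in M1P (-0.98 ± 0.15, adjusted p = 0.0013), and Sdhb, a complex II subunit, fell by 0.91 ± 0.15.

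Protein folding and amino acid genes moved in both directions. Of 24 chaperones and stress sensors of the endoplasmic reticulum 6 rose (25%) and 8 fell (33.3%). Sdf2l1 read 8.06, 8.21 and 7.78 in L1P and 10.07, 9.64 and 9.54 in M1P (-1.73 ± 0.20, adjusted p = 0.000234). Of 20 amino acid genes 6 rose (30%) and 4 fell (20%). Got1, the cytosolic aspartate aminotransferase, read 7.59, 7.85 and 7.76 in L1P and 9.64, 9.34 and 9.07 in M1P (-1.62 ± 0.15, adjusted p = 5e-05). Slc38a1, a glutamine transporter, read 9.56, 9.30 and 9.45 in L1P and 6.55, 8.35 and 8.14 in M1P and rose by 1.76 ± 0.35. Sdf2l1, Got1 and Slc38a1 passed against each M1P array.

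The largest list shifts upward in L1P relative to M1P were in genes for chromatin and RNA processing. Of all lists these had the largest change in median, in log2 units, between M1P arrays 1 and 3. Of 29 chromatin remodellers and histone methyltransferases 17 rose (58.6%) and 12 did not pass. Their mean level was 7.72, 8.07 and 7.88 on the E1KD arrays, 7.84, 7.65 and 7.99 in L1P and 5.82, 6.87 and 7.07 in M1P. L1P thus lay at the level of the parent and M1P below it. The median difference was 1.19, made up of 1.99 against M1P array 1, 0.77 against array 2 and 0.72 against array 3, where all genes had -0.41, -0.19 and -0.10. Chd8, a chromatin remodeller, read 7.97, 7.73 and 7.87 in L1P and 5.16, 6.35 and 6.63 in M1P, and it was the 1 member that passed against each M1P array. Atrx, an H3.3-depositing remodeller, read 8.15, 8.51 and 9.30 in L1P and 3.60, 4.32 and 7.63 in M1P, so M1P arrays 1 and 2 lay far below array 3.

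Of 29 splicing factors 19 rose (65.5%), 3 fell and 7 did not pass, with medians of 1.67, 0.58 and 0.47 against M1P arrays 1, 2 and 3. Their mean level was 10.49, 10.69 and 10.56 in E1KD, 10.56, 10.42 and 10.71 in L1P and 9.08, 9.87 and 10.15 in M1P. Here too L1P lay at the level of the parent and M1P below it. Son, a speckle protein needed for splicing of weak sites, read 10.74, 10.68 and 10.89 in L1P and 7.89, 9.56 and 9.48 in M1P, and Srsf1 read 12.51, 12.37 and 12.50 against 10.11, 11.79 and 11.81. Son, Srsf1, Hnrnpm and Hnrnpu passed against each M1P array. Of 39 cell cycle genes 10 rose (25.6%) and 3 fell, the former near the share among genes left by the low-signal filter. Mki67, the proliferation marker, read 11.15, 11.29 and 12.06 in L1P and 6.48, 7.27 and 10.20 in M1P (3.51 ± 0.82, adjusted p = 0.00943), and Ccnd2, a D-type cyclin, read 11.08, 11.09 and 10.93 against 8.12, 10.15 and 9.74. Ccnd2 passed against each M1P array and Mki67 did not.

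**Figure D4:**
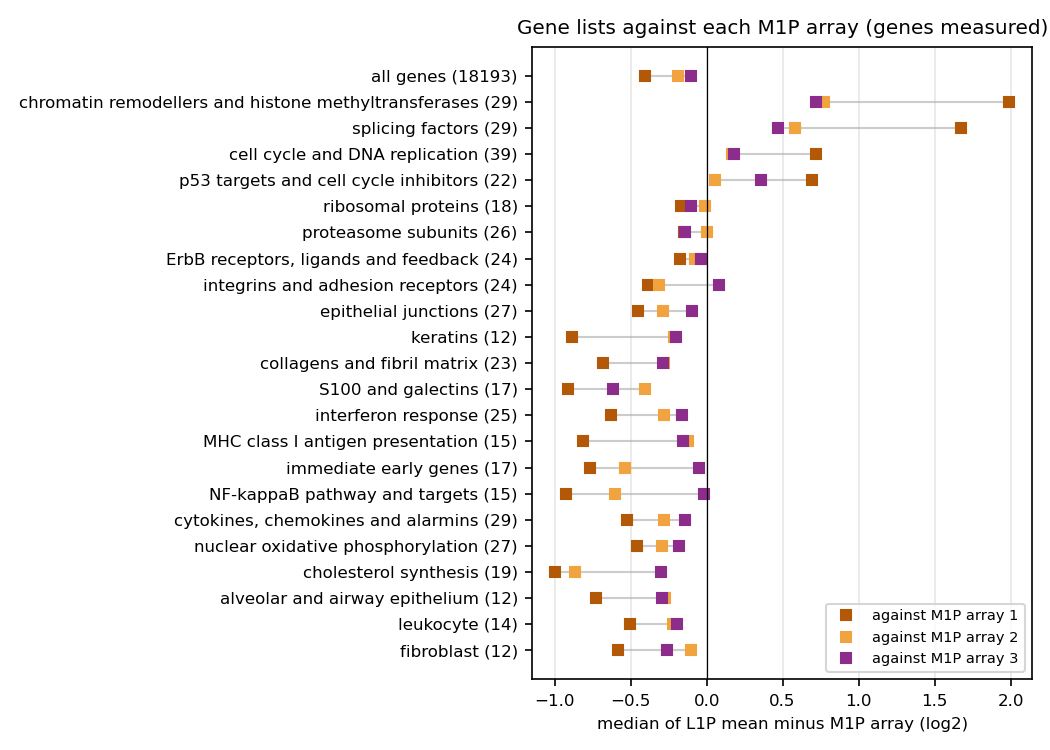
Median of the L1P mean minus each M1P array, in log2 units, for 22 gene lists and all genes; each row has 1 square per M1P array and the number of genes measured. The chromatin and splicing lists lie at 1.99 and 1.67 against M1P array 1 and at 0.72 and 0.47 against array 3, and the ribosomal protein and proteasome lists stay near 0 against each array.

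The genes that differed most between M1P arrays 1 and 3 show what set these arrays apart, as a description. Dhx36, an RNA helicase, read 3.09, 6.20 and 7.95 on M1P arrays 1 to 3 and 8.40, 8.55 and 9.09 in L1P. Ranbp2, a nuclear pore protein, read 3.84, 5.34 and 8.63 in M1P and 8.97, 9.16 and 9.86 in L1P, and Trpm7, a channel kinase, read 2.93, 4.96 and 7.78 against 7.90, 7.83 and 9.09. M1P array 2 lay between the other M1P arrays for these 3 genes. In the other direction Cxcl3, described above, differed most, by 3.67. Egr1, an immediate early transcription factor, followed at 8.08, 8.46 and 4.99 in M1P and 5.32, 5.90 and 5.33 in L1P, so M1P array 3 was below all L1P arrays while arrays 1 and 2 were above. Lbp, the lipopolysaccharide-binding protein, read 9.20, 8.89 and 6.43 in M1P and 6.24, 6.72 and 5.36 in L1P. With all arrays Egr1 did not pass (adjusted p = 0.0628).

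Markers of host cells were checked, because both lines had been taken from tissue. The leukocyte marker Ptprc read 2.48, 2.67 and 2.72 in L1P and 2.39, 2.56 and 2.54 in M1P, and the endothelial marker Pecam1 read 2.88, 2.84 and 2.67 against 2.85, 3.09 and 2.91, both near the E1KD means of 2.49 and 2.87. Of 14 leukocyte, 12 endothelial and 12 fibroblast markers 5, 2 and 4 fell (35.7%, 16.7% and 33.3%), beside 25.9% over all genes. The mean level of the 12 fibroblast markers was 4.16, 3.59 and 3.59 on the M1P arrays and 3.42 to 3.49 on the L1P arrays. Other low-signal marker lists were also highest on M1P array 1. Endothelial means were 4.27, 4.09 and 3.98 on the M1P arrays, and skeletal muscle means 4.59, 4.27 and 4.16. The lower quartile of all signals was 3.106, 2.977 and 2.970 on these arrays. The part of background signal or of host cells in these means was not tested. Col1a2 read 6.46, 4.60 and 4.49 in M1P and 4.19, 4.18 and 4.07 in L1P. M1P array 1 was the array with the most Col1a2 signal, and its part in the collagen counts was not tested. Of 12 alveolar and airway markers 6 fell (50%), led by Foxj1, the ciliogenesis factor. Foxj1 read 4.89, 5.16 and 4.59 in L1P and 8.40, 7.78 and 6.44 in M1P. Aqp5, a water channel of alveolar and glandular cells, read 5.39, 5.48 and 6.09 against 7.79, 6.94 and 7.39. Sftpc, the defining surfactant protein of alveolar type II cells, read 3.85, 3.49 and 3.61 in the lung line and did not pass. Epcam, an epithelial surface marker, read 5.17 to 5.40 in L1P and 5.45 to 5.80 in M1P, beside an E1KD mean of 5.30, whereas the keratins above were abundant.

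Genes that passed against each M1P array were unevenly spread over chromosomes, a pattern seen in the data and given without a test. Chromosome 14 held 62 of the genes that were higher among its 648 measured genes (9.57%, against 1.54% over all 18134 genes with a chromosome). Chromosome 19 held 51 lower genes of 611 (8.35%) and chromosome 5 held 94 of 1131 (8.31%), against 2.77% overall. Chromosome 7 followed with 73 lower genes of 1420 (5.14%). Among genes with a mean signal of at least 7, the median on chromosome 14 was 0.80, 0.51 and 0.69 against M1P arrays 1, 2 and 3, beside -0.08, -0.12 and 0.05 over all chromosomes. Against M1P array 1 alone chromosomes 13, 18 and X had higher medians (0.93, 0.89 and 0.88) and chromosomes 7 and 17 the lowest (-0.65 and -0.66), and against M1P array 3 these were 0.13, 0.21, 0.07, -0.19 and -0.08. On chromosome 19 it was -0.60, -0.52 and -0.25 and on chromosome 5 it was -0.48, -0.49 and -0.26.

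The parent line places these shifts. On chromosome 14 the median L1P minus E1KD difference was 0.62 and that of M1P array 3 minus E1KD was -0.04. On chromosome 19 the values were -0.38 and 0.01, on chromosome 5 they were -0.06 and 0.25, and on chromosome 7 they were 0.16 and 0.36. L1P was thus the line farther from the parent on chromosomes 14 and 19, and M1P array 3 on chromosomes 5 and 7. Of the genes described above that passed against each M1P array, Abcc4, Chd8, Lats2 and Mycbp2 lie on chromosome 14 and were higher in L1P, while Scara3 lies there and was lower. Csn3, Cxcl3, Fgfr3, Fzd1, Mvk, Oasl1, Pilra and Pilrb1 lie on chromosome 5 and were lower, while Abcb1b lies there and was higher. Got1 and Ndufb8 lie on chromosome 19 and were lower. Nlrp14 and Tjp1 lie on chromosome 7 and were higher, against the direction of that chromosome's median. Gene dosage was not measured.

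**Figure D5:**
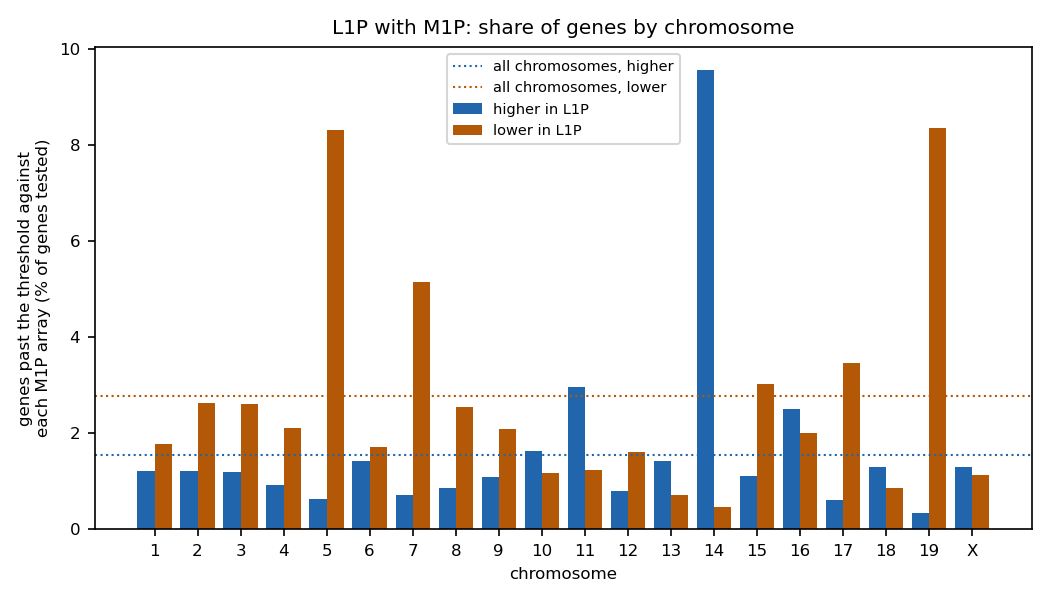
Share of measured genes on each chromosome (percent) that were higher or lower in L1P against each M1P array, with the shares over all chromosomes as dotted lines. Chromosome 14 stands at 9.57% higher, and chromosomes 5 and 19 at 8.31% and 8.35% lower.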

How the data were processed

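RNA was labelled with a 3' in vitro transcription kit from 100 ng of total RNA and hybridised to Affymetrix mouse arrays, 3 per line, per the labels. The values analysed are the authors' deposited log2 signals; RMA, MAS5 and Affymetrix Expression Console are named in the submitters' processing notes, with no versions and no roles, which the sources used here do not give. Of 45101 probe sets, 34945 have 1 gene symbol, 932 have several, 9160 have none and 64 are controls; symbols were updated through Entrez identifiers for 34741. The probe set with the highest mean over the 15 arrays stood for each of 18193 genes. limma 3.58.1 in R 4.3.3 was fitted to all 15 arrays with 1 coefficient per line, the contrast L1P minus M1P was tested with eBayes, two-sided, and p-values were adjusted by Benjamini-Hochberg over all genes, with a threshold of 0.05. The script was tested on simulated data. With 3 arrays per line, precision is limited by their number. The arrays' build was not used, and chromosomes come from RefSeq's GRCm38.p6 table.

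The members and lists were chosen with earlier results of these data known. Genes named are a fixed set tied to hnRNP E1 and cell identity, the 12 genes in each direction with the widest gap between lines, the largest other differences, up to 3 members in each direction of each list, and the genes that differ most between M1P arrays 1 and 3. Named after their values were seen were Chd8, Son, Srsf1, Hnrnpm, Hnrnpu, Ccnd2, Procr, Nsdhl, Snai2, the marker genes Krt8, Krt18, Epcam, Ptprc, Pecam1 and Sftpc, and the transporter and germline genes outside the widest gaps. The alternatives tried are given with their effect below.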

Additional observations from a re-analysis of the deposited data

How the results depend on the processing

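The counts of genes past the threshold, 2466 higher and 4720 lower in L1P, moved more with the arrays included than with the normalization. With the spread taken from the 6 arrays alone they were 88 and 200, and with the 3'-5' control difference as a covariate they were 704 and 1713. Against M1P array 1 alone they were 3651 and 8182, against M1P array 2 alone 1808 and 2372, and against M1P array 3 alone 577 and 750. Leaving out each array in turn gave 802 to 3185 higher genes and 1687 to 6678 lower genes. A low-signal filter (log2 signal of at least 6 on at least 3 arrays), which left 8961 genes, gave 2389 and 2455, so that 49.3% of calls were higher in place of 34.3%. Quantile normalization (2128 and 4446), median centring (2497 and 3765), other probe set choices, array weights and a trended, robust fit stayed within 1.5 times of the main counts. Deviations of same-numbered L1P and M1P arrays correlated at 0.37, 0.01 and 0.62, so the numbers were not taken to pair them; with the replicate number as a block the counts were 2930 and 5792. For the 279 higher and 503 lower genes that passed against each M1P array, an analysis added after the data were seen, the counts were 85 and 197 with the spread from the 6 arrays alone, 583 and 879 with array weights, and 154 higher with the control covariate. With the replicate block they were 441 and 639, and leaving out each array in turn gave 137 to 1760 higher and 245 to 2144 lower genes, where a fit without 1 M1P array tests against the other M1P arrays only. Of the genes named, Ereg turned from higher to -0.06341 against M1P array 3 alone. Of 95 named genes past the threshold, 36 stayed past it under every one of the 19 alternatives that gave them a value, Abcb1b, Nxf3, Erbb3, Nrg1, Ly6e, Defb41, Irx3 and S100a4 among them. Why the counts moved was not tested. Signal near background limits what can be said of genes that are low in either line.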
